A study of Mus musculus with 4 samples.

Results

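The cytochrome P450 genes of the mouse were compared between normal ureter and ureter tumors. Members were all probe sets of the expression array that the platform annotation assigns to 1 gene whose symbol has the form Cyp, family number, subfamily letter and gene number. This gave 94 probe sets for 71 genes in 15 families, of 18193 genes measured. Each gene was read from its probe set with the highest mean signal, and it was tested where that mean reached a signal of 60.8, the 40th percentile once control probe sets were set aside. The test covered 43 of the 71 members, in 14 families, and 13115 genes in all.

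P450 enzymes are heme proteins of the endoplasmic reticulum or the mitochondrial inner membrane. They take electrons from a reductase or from adrenodoxin and insert an oxygen atom into lipids, steroids, vitamins, drugs and carcinogens. Members of the low-numbered families are known mainly for oxidising foreign compounds in liver, kidney and lung, and family 4 for hydroxylating fatty acids and eicosanoids. Members of the higher-numbered families make or break down steroid hormones, bile acids, vitamin D and retinoic acid. In the urothelium, the lining of the urinary tract, P450 enzymes are known for activating aromatic amines and polycyclic hydrocarbons that reach it in urine.

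The study asked about Notch signaling in urothelial cancer and held 4 samples, 2 of normal ureter and 2 of ureter tumor, with 1 Affymetrix array each. All mice were C57Bl/6 and aged 6 to 8 weeks, and the ureter epithelium was isolated, per the labels. All 4 samples carry the same treatment text: doxycycline for 1 week from 3 weeks of age, in R26rtTA;teto-Cre;Ncstnf/f mice. In these mice doxycycline switches on Cre, which removes loxP-flanked Ncstn, the gene of the gamma-secretase subunit nicastrin that Notch cleavage needs. The Rosa26 locus that drives rtTA is active in most tissues, so recombination was not limited to urothelium by design. The genotype and sex of each sample, the number of animals behind it and whether the normal mice carried a Cre were not given in the sources used here.

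Values are MAS5 signals, linear intensities whose trimmed mean was 500 on each array of the deposited table. Differences below are tumor minus normal on the log2(signal + 16) scale, on which dim genes show less change than they had, and each fold is taken from that scale. The labels call the samples biological replicates, and the p-values measure only the spread between these samples. The number of arrays limits the precision. An exact permutation test of 2 against 2 arrays cannot go below p = 0.333, so tests come from limma fitted across all genes.

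The tumor arrays stood apart from each other in markers of several cell types, and this touches the results that follow. Summed signals of the 12 kidney proximal tubule markers were 66908 and 86727 on the normal arrays, 7270 on tumor array 1 and 127254 on tumor array 2. Markers of umbrella cells, the superficial urothelial layer, summed to 36911 and 58906 in normal ureter and to 10928 and 1679 in the tumors, and 5 of 10 fell. Fat cell markers, 9 measured of 11 listed, summed to 294730 and 307301 in normal ureter against 38852 and 9181 in the tumors. Hence the normal samples, labelled as isolated epithelium, also held RNA of fat and kidney markers. Xist, the transcript of the inactive X chromosome, read 24998, 25925 and 20566 on both normal arrays and tumor array 1, and 41.9 on tumor array 2. Summed Y-linked signals of Eif2s3y, Kdm5d and Uty were 30.3, 21.9, 11.0 and 2656 in the same order. In bulk samples, fewer cells of a type and less RNA per cell cannot be told apart.

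Of the 43 tested members, Cyp1b1 and Cyp7b1 rose in the tumors and none fell at an adjusted p under 0.05 in limma. Over all genes tested the share called was 0.488% higher and 0.961% lower. At an unadjusted p under 0.05, 4 members were higher and 8 lower, against 10.7% and 10.8% of all genes. A 2-fold difference together with that unadjusted p was met by 4 members higher and 6 lower, against 7.03% and 7.48%. The median difference was -0.45 over the tested members and 0.03 over all genes tested. The member median depended on the settings. With the signal limit raised to the 60th percentile, 25 members were tested, and the medians were -0.03 and 0.04. The shift was thus small among the brighter members. With 64 added to each signal before the log, the member median was -0.23, and with 1 added it was -0.58. A member could pass the filter through a single bright array, as Cyp11a1 did, so these counts describe only the members tested.

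**Figure D1:**
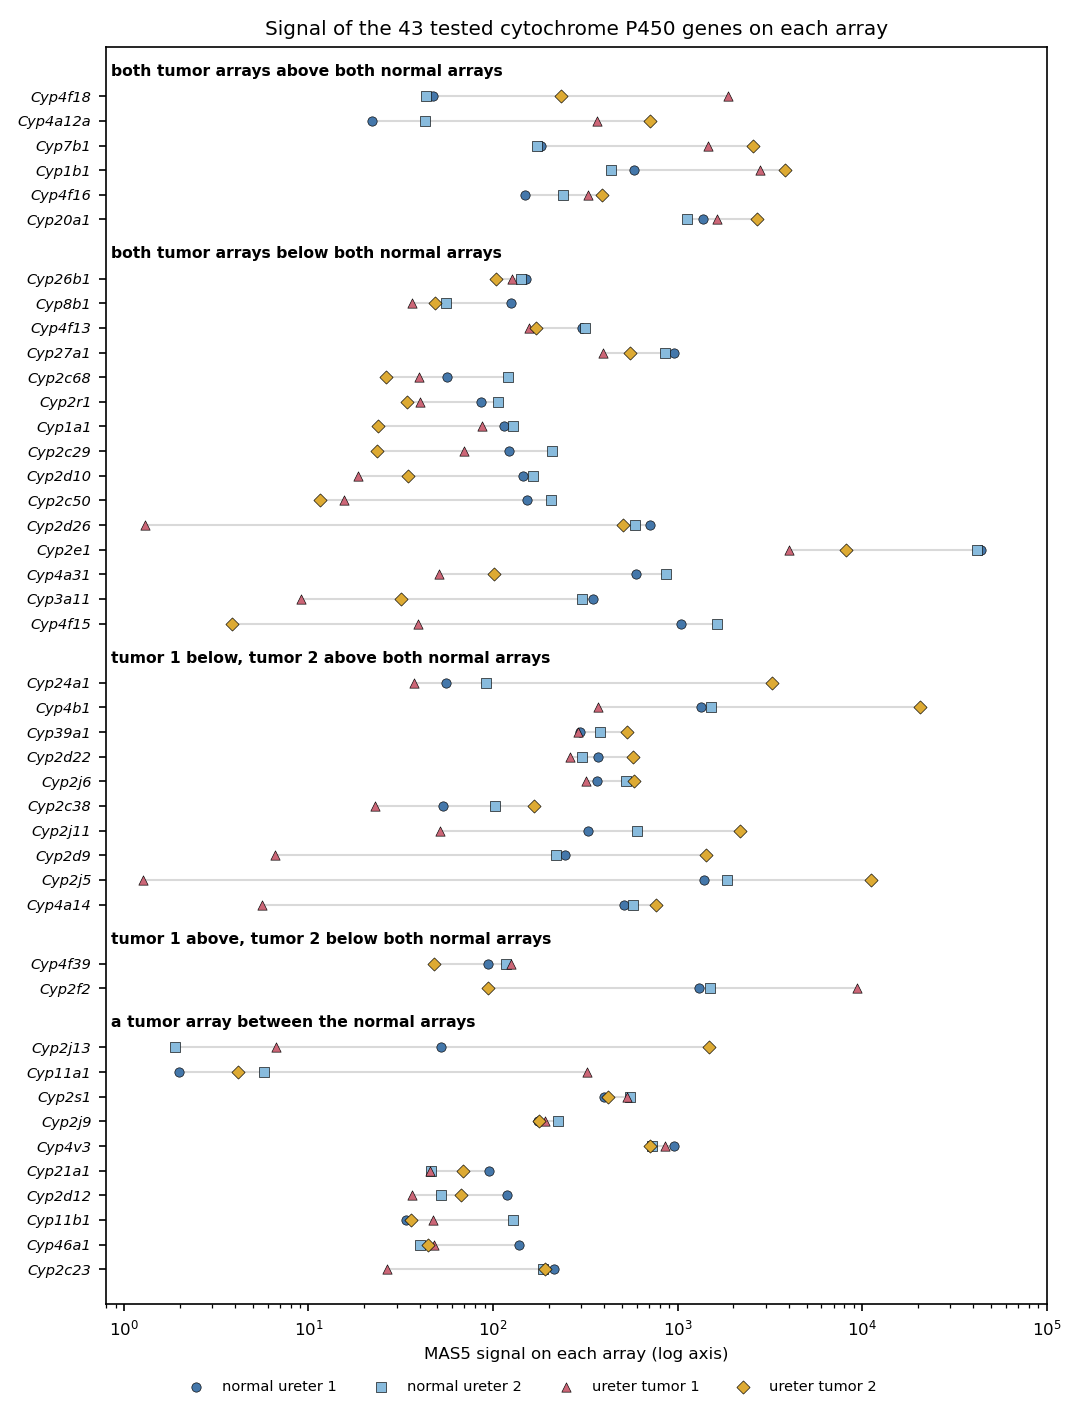
MAS5 signals of the tested P450 genes on a log horizontal axis, with 1 point for each of the 2 normal and 2 tumor arrays and 1 line per gene. Cyp1b1 and Cyp7b1 have both tumor points to the right of both normal points, while the tumor points of Cyp2j5, at 1.27 and 11129, lie on either side of its normal points.

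The side on which each tumor array lay was also counted. Neither tumor array overlapped with normal ureter in 6 of the 43 members that were higher in both tumors, against 29.7% of all genes, and in 15 that were lower in both, against 27.6%. Tumor array 1 lay below and tumor array 2 above both normal arrays for 10 members, against 11.5% of all genes. The reverse held for 2 members, against 8.94%. The tumor arrays were at least 4-fold apart in 13 of the 43 members and in 9.25% of all genes, whereas the normal arrays were that far apart in 0 of the 43 and in 0.473% of all genes. Tumor array 2 was at least 4-fold above tumor array 1 in 10 of the 43 members, 23.3%, against 5.4% of all genes, and tumor array 1 was that far above tumor array 2 in 3 of the 43, 6.98%, against 3.85%.

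Cyp1b1, which oxidises estrogens and polycyclic hydrocarbons and is known from tissues outside the liver, was the first of the genes that rose. Its signals were 580 and 436 in normal ureter and 2814 and 3817 in the tumors. Both tumor arrays were above both normal arrays by a wide margin compared with the gap within either group. The means were 508 ± 102 and 3316 ± 709 (SD, n = 2 each). The difference was 2.67 (SE 0.27), a fold of 6.35, with a limma adjusted p of 0.0462. The second Cyp1b1 probe set above the limit read 123 and 107 against 389 and 456, in the same direction.

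The other genes of family 1 were dimmer, and neither rose. Cyp1a1, which oxidises polycyclic hydrocarbons and is the classical target of the aryl hydrocarbon receptor, read 115 and 129 in normal ureter and 86.6 and 23.8 in the tumors. Its difference of -1.11 (SE 0.61) did not pass the test (adjusted p = 0.373). Cyp1a2, the mainly hepatic member, stayed under the limit, with 2.15 to 80.2 over the 4 arrays. Thus both Cyp1b1 tumor arrays were above their normal arrays and both Cyp1a1 tumor arrays were below theirs. The genes of the receptor pathway that were tested did not pass either. Ahr, the receptor, read 3408 and 4208 against 4874 and 1863, and its target Tiparp had a difference of 0.06, while Ahrr was under the limit.

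The promoters of the 3 genes are shown because the receptor binds a short core, GCGTG, and the genes differed in direction. Capitals mark this core on either strand, which reads CACGC where it lies on the opposite strand. Each sequence is the 250 bases before the annotated start, 5′ to 3′ on the gene's strand, from RefSeq on GRCm38.p6.
Cyp1a1 (chr9:57697363-57697612, plus strand): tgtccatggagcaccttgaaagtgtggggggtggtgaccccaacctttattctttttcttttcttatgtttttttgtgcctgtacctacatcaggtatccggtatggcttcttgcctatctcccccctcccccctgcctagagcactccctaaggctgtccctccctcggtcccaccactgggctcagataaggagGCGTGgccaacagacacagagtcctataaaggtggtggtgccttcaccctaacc
Cyp1a2 (chr9:57683656-57683905, minus strand): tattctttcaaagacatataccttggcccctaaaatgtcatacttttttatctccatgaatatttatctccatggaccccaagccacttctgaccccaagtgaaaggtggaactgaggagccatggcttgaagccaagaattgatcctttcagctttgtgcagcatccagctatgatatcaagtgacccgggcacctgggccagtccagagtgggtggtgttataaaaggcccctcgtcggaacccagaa
Cyp1b1 (chr17:79715062-79715311, minus strand): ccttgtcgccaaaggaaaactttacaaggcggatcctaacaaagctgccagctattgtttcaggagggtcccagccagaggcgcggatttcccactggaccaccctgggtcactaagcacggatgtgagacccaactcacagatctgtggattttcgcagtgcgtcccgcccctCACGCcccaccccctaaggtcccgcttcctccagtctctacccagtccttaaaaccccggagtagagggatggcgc
The core began 54 bases before the start in Cyp1a1 and 76 bases before it in Cyp1b1, and these letters were not in the Cyp1a2 window. Of 32851 RefSeq promoters, 28.2% held the core in this window, so a match is common. Among the 58 promoters matched to 51 of the 71 members, 22.4% held it.

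Cyp7b1 was the other member that rose. It encodes the oxysterol 7alpha-hydroxylase, which acts on 25- and 27-hydroxycholesterol and on dehydroepiandrosterone. Its signals were 182 and 174 in normal ureter and 1465 and 2578 in the tumors. The groups did not overlap, and the normal arrays were close to each other. Means were 178 ± 5.87 and 2021 ± 787 (SD, n = 2 each), a difference of 3.34 (SE 0.34) and a fold of 10.1, with an adjusted p of 0.0467. A second probe set read 299 and 202 against 1121 and 1997, again higher in both tumors. Macrophage markers moved the same way: 9 of the 10 listed were higher on both tumor arrays, 3 of them past the test, and their sums were 20089 and 16527 against 64643 and 59302. Their part in the results for Cyp1b1 and Cyp7b1 was not tested.

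Both calls sit close to the threshold. Leaving out either normal array gave adjusted p-values of 0.662 to 0.678 for both genes, with differences of 2.47 and 2.87 for Cyp1b1 and of 3.30 and 3.37 for Cyp7b1. Over all alternatives the adjusted p ranged from 3.44e-06 to 0.678 for Cyp1b1 and from 1.36e-06 to 0.678 for Cyp7b1, and every difference stayed above 0.

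None of the other sterol enzymes passed the test. Cyp27a1, the mitochondrial sterol 27-hydroxylase that makes 27-hydroxycholesterol, read 961 and 850 against 393 and 553, lower in both tumors (difference -0.93, SE 0.26, adjusted p = 0.168). Cyp8b1, the sterol 12alpha-hydroxylase of bile acid synthesis, read 124 and 55.4 against 36.4 and 48.5. Cyp39a1, which hydroxylates 24-hydroxycholesterol, gave 297 and 378 against 288 and 535, so its tumor arrays lay on either side of the normal ones. Cyp46a1, the brain cholesterol 24-hydroxylase, read 138 and 40.01 against 47.6 and 44.3. Cyp7a1, the rate-limiting enzyme of bile acid synthesis, was under the limit, with 20.2 to 93.7 over the 4 arrays. Of the 6 genes listed for bile acid and oxysterol metabolism, 5 were tested, 1 rose and none fell, and 1 was lower at an unadjusted p under 0.05. Over all genes tested, 0.488% rose and 0.961% fell, and 10.8% were lower at that unadjusted p.

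A further 4 members had both tumor arrays above both normal arrays without passing the test. Cyp4a12a, an arachidonic acid hydroxylase known for male-biased expression in mouse kidney, read 22.2 and 42.8 in normal ureter and 365 and 706 in the tumors. The difference was 3.47 (SE 0.49), a fold of 11.1, with an adjusted p of 0.071. Both tumor arrays were above both normal arrays. The normal signals were under the limit, so the gene passed the filter through the tumor arrays and the fold depends on the pseudocount, with a difference of 3.997 at a pseudocount of 1 and 2.58 at 64. Cyp4f18, the enzyme that oxidises leukotriene B4 in mouse neutrophils, read 47.4 and 43.5 against 1886 and 233. Tumor array 1 was 7.65-fold above tumor array 2, and the difference was 3.49 (SE 1.06, adjusted p = 0.184). Its normal signals were under the limit too, and the difference was 3.84 at a pseudocount of 1 and 2.80 at 64. Neutrophil markers, a list of 5 chosen after seeing the data, had 4 members above on both tumor arrays, with sums of 363 and 258 in normal ureter, 11326 on tumor array 1 and 1135 on tumor array 2. Their part in the Cyp4f18 result was not tested. Cyp4f16 read 149 and 241 against 328 and 388, and Cyp20a1, a member of unknown substrate, read 1372 and 1120 against 1638 and 2698. Their differences were 0.86 (adjusted p = 0.259) and 0.76 (adjusted p = 0.273), and the second Cyp20a1 probe set above the limit pointed down.

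Among the 15 members with both tumor arrays below both normal arrays, the largest differences were in families 2, 3 and 4. Cyp4f15, a fatty acid hydroxylase, read 1040 and 1639 in normal ureter and 39.2 and 3.86 in the tumors. The normal arrays were at least an order of magnitude above either tumor array. The difference was -5.32 (SE 0.63), a fold of 39.9 lower, with an adjusted p of 0.0542. Both tumor signals were under the limit, so the fold depends on the pseudocount, with a difference of -6.55 (adjusted p = 0.0949) at a pseudocount of 1. The gene missed the threshold, and it passed with a pseudocount of 64 (difference -4.04, adjusted p = 0.0403) or when every probe set was tested (adjusted p = 0.0411). Over all alternatives its adjusted p ranged from 3.15e-07 to 0.678.

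Cyp2e1, which oxidises ethanol, acetone and small solvents, read 44324 and 41921 in normal ureter and 3992 and 8223 in the tumors. The normal arrays differed little, and both tumor arrays were several-fold lower. Its difference was -2.91 (SE 0.41), 7.5-fold lower, with an adjusted p of 0.0693. Cyp4a31, of the fatty acid omega-hydroxylases, read 597 and 870 against 50.8 and 101 (difference -3.06, SE 0.42, adjusted p = 0.0679). Its other probe set above the limit read 26.8, 108, 0.359 and 374 and pointed the other way, so this gene is uncertain. Fat markers were lower on both tumor arrays in 8 of the 9 measured genes, as given above, and umbrella cell markers in 9 of 10. Their part in the results for the members that were lower in both tumors was not tested.

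Cyp3a11, the main drug-oxidising enzyme of its subfamily in mouse liver, read 350 and 303 in normal ureter and 9.14 and 31.8 in the tumors. The difference was -3.30 (SE 0.49), 9.86-fold lower, with an adjusted p of 0.0738. Cyp2c50, an arachidonic acid epoxygenase, read 153 and 206 against 15.6 and 11.5 (difference -2.71, SE 0.45, adjusted p = 0.0848). Cyp2d10 read 144 and 164 against 18.7 and 34.5 (difference -2.02, adjusted p = 0.125). In these 3 genes both tumor arrays were below the limit of 60.8, so the fold is set partly by the pseudocount. Cyp2d26 also had both tumor arrays below, but unevenly, with 706 and 587 against 1.30 and 505. The first tumor array was near zero and the second was close to normal (difference -2.80, adjusted p = 0.418).

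The remaining members below in both tumors had smaller differences. Cyp2c29 read 122 and 208 against 69.6 and 23.6, and Cyp2c68 read 56.5 and 121 against 39.9 and 26.3. Cyp4f13 read 304 and 313 against 157 and 170, a difference of -0.85 (adjusted p = 0.185) with little spread in either group. Cyp2r1, the main vitamin D 25-hydroxylase, read 86.4 and 106 against 40.1 and 34.0 (difference -1.08, adjusted p = 0.261). Cyp26b1, which breaks down retinoic acid, read 150 and 142 against 127 and 104 (difference -0.31, adjusted p = 0.633). The others were Cyp1a1, Cyp27a1 and Cyp8b1, described above.

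Promoters are shown for 3 of these members, the only tested members found with the letters CAAAGTCCA in their promoter. These letters are a repeat of the type that hepatocyte nuclear factor 4 alpha binds. Capitals mark it. The windows are as for family 1, from RefSeq on GRCm38.p6.
Cyp2c68 (chr19:39741102-39741351, minus strand): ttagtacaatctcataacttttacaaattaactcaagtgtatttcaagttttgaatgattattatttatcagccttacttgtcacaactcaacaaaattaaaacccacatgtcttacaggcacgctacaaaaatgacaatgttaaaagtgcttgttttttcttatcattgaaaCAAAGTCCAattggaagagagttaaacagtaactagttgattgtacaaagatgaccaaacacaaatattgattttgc
Cyp3a11 (chr5:145879855-145880104, minus strand): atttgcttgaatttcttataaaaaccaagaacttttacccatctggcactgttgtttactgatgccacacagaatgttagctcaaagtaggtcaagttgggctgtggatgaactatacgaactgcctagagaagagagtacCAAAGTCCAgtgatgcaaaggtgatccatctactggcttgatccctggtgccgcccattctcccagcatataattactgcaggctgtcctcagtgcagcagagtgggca
Cyp8b1 (chr9:121916306-121916555, minus strand): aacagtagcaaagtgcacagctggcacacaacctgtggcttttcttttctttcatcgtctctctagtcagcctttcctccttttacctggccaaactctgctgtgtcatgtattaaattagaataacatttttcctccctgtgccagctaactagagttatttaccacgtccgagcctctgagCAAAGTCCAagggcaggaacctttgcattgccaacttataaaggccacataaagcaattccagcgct
The repeat began 77, 109 and 67 bases before the start in Cyp2c68, Cyp3a11 and Cyp8b1. It lay in 6 of the 58 member promoters, 10.3%, and in 0.384% of all promoters in the table. The other 3 genes with it, Cyp2c65, Cyp2c70 and Cyp3a16, were under the signal limit and did not share a pattern. Cyp3a16 was below on both tumor arrays, and Cyp2c65 was below on tumor array 1 and above on tumor array 2. For Cyp2c70, tumor array 1 lay between the normal arrays. Cyp2c65, Cyp2c68 and Cyp2c70 lie in the same group of neighbouring related genes, as do Cyp3a11 and Cyp3a16. These matches are therefore not independent of each other. Hnf4a, the gene of that factor, read 954 and 1067 in normal ureter, 52.8 on tumor array 1 and 5718 on tumor array 2. All 3 printed genes were below normal on both tumor arrays, against 27.6% of all genes tested. Their tumor signals were all under the limit of 60.8, and Cyp2c68 only just reached it, with a mean of 60.83. Tumor array 2 was the higher tumor array for Cyp3a11 and Cyp8b1 and the lower one for Cyp2c68. Of the other motifs searched on both strands, TATAAA lay in 32.8% of member promoters and 12.4% of all, AGGTCA in 22.4% and 14%, TGANTCA in 5.17% and 6.75%, and GTTAAT in 5.17% and 6.43%. None of these letters is contained in another of the motifs, and a match is not a binding site.

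In another 10 members tumor array 1 was below normal ureter and tumor array 2 above it. Cyp2j5, an arachidonic acid epoxygenase of the kidney proximal tubule, read 1387 and 1858 in normal ureter, 1.27 on tumor array 1 and 11129 on tumor array 2. The normal arrays lay between the tumor arrays, which were 645-fold apart. The mean difference of -1.89 had an SE of 3.27 (adjusted p = 0.777), and it was -6.55 from tumor array 1 alone and 2.78 from tumor array 2 alone. The other Cyp2j5 probe set above the limit had the same order, with 220, 353, 4.34 and 1680.

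Cyp4b1, known for activating aromatic amines in bladder and kidney, read 1337 and 1521 in normal ureter, 372 on tumor array 1 and 20717 on tumor array 2. Its tumor arrays were 53.4-fold apart (difference 0.98, SE 2.01, adjusted p = 0.815). Cyp24a1, the mitochondrial enzyme that inactivates vitamin D, read 55.3 and 91.8 against 37.2 and 3229 (difference 2.24, SE 2.10, adjusted p = 0.583). On 3 arrays it was near the signal limit, and on tumor array 2 it was bright. The vitamin D receptor gene Vdr, whose known target Cyp24a1 is, read 165 and 268 against 451 and 1600, higher in both tumors (difference 1.94, adjusted p = 0.230). Cyp27b1, which makes active vitamin D, was under the limit with 5.45, 49.9, 44.0 and 68.7.

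Cyp2d9, a steroid 16alpha-hydroxylase known for male-specific expression in mouse liver, read 244 and 218 in normal ureter, 6.58 on tumor array 1 and 1423 on tumor array 2. Cyp2j11 read 327 and 604 against 51.7 and 2182, and Cyp2j13, known for male-biased expression in mouse kidney, read 52.4 and 1.89 against 6.66 and 1483, with tumor array 1 between the normal arrays. Tumor array 2 was thus the brightest array for each of these 3 genes, by 63.7-fold, 32.4-fold and 66.2-fold over tumor array 1. Their limma adjusted p-values were 0.923, 0.950 and 0.584. Cyp4a14, a lauric acid hydroxylase, read 510 and 571 against 5.58 and 760, so tumor array 2 was near normal and tumor array 1 was near zero. Cyp2c23, an epoxygenase of mouse kidney, read 214 and 187 against 26.6 and 192, so tumor array 1 was low and tumor array 2 lay between the normal arrays. The remaining members with tumor array 1 below and tumor array 2 above, Cyp2c38, Cyp2d22, Cyp2j6 and Cyp39a1, had tumor arrays between 1.78-fold and 4.69-fold apart.

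Kidney markers moved along with the members that were low on tumor array 1 and high on tumor array 2. Tumor array 1 was below and tumor array 2 above both normal arrays for 11 of 12 proximal tubule markers. The same held for 4 of 4 markers of the thick limb and distal tubule, a list chosen after seeing the data, with sums of 9461, 15516, 1343 and 99305. Hepatocyte markers, 9 measured of 10 listed, did not share one pattern: 6 of the 8 tested were below on both tumor arrays, among them Alb with 1756 and 5082 against 63.0 and 59.4. Only Ttr lay below on tumor array 1 and above on tumor array 2, and its signal of 12990 made up most of the list's sum of 13744 on tumor array 2. The sums on the other arrays were 6483, 14037 and 400. Xist and Y-linked signals also set tumor array 2 apart from the other 3 arrays, as given above. The part of kidney RNA and of these sex-linked differences in the P450 results was not tested.

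**Figure D2:**
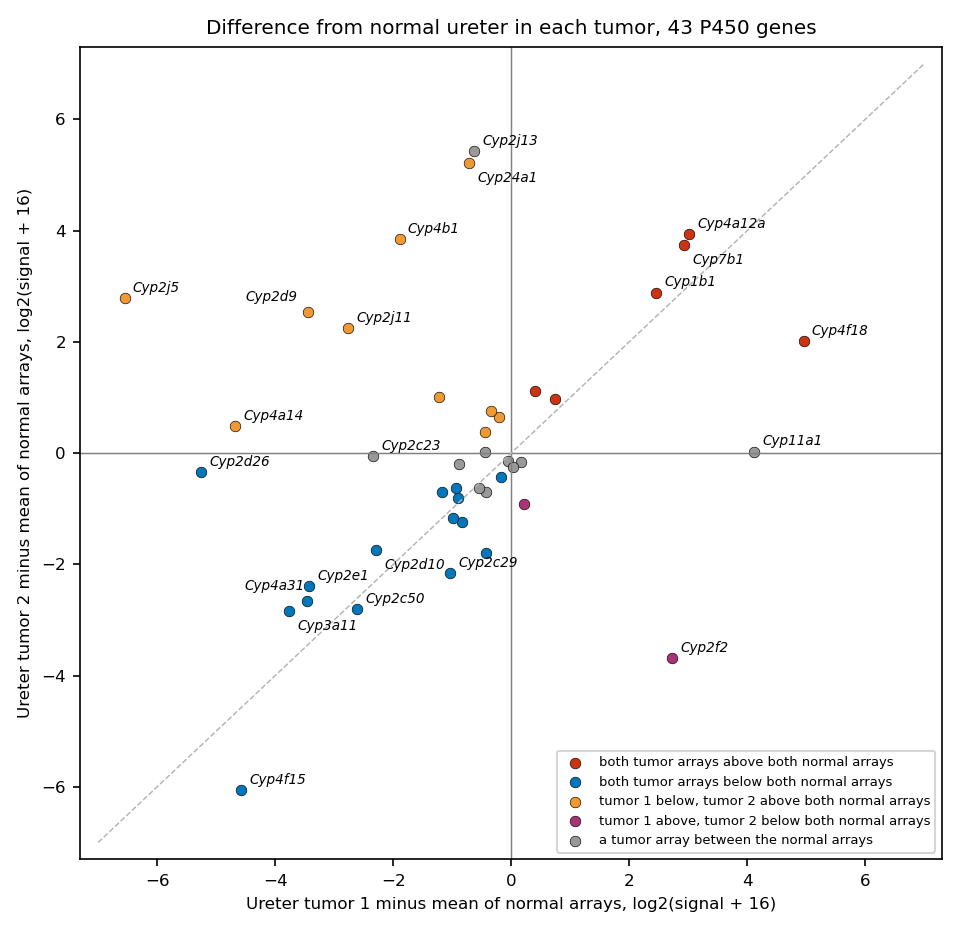
Difference of each tumor array from the mean of the normal arrays, log2(signal + 16), with tumor array 1 on the horizontal and tumor array 2 on the vertical axis, 1 point for each of the 43 tested members, coloured by the side on which the tumor arrays lay. The 10 members at upper left, led by Cyp2j5 at -6.55 and 2.78, were below normal on tumor array 1 and above it on tumor array 2, and the dashed line marks equal differences.

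**Figure D3:**
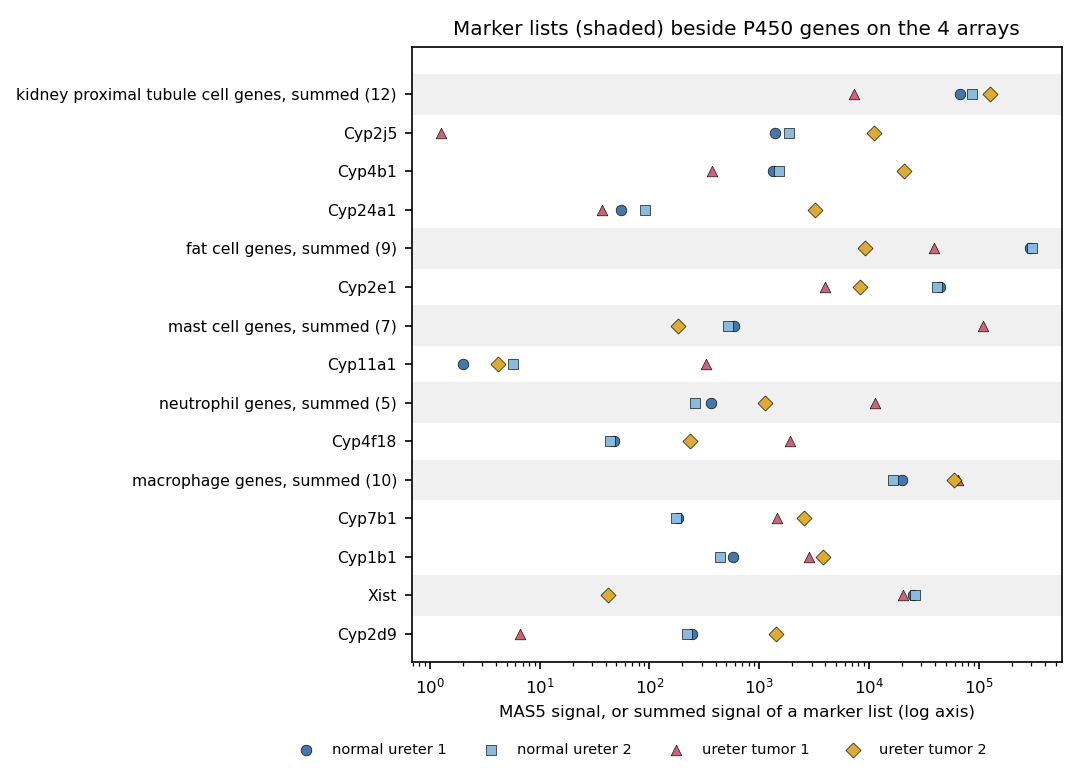
Shaded rows show summed signals of cell type marker lists, and the signal of Xist, on each of the 4 arrays, on a log axis. Unshaded rows show signals of single P450 genes picked for display beside the lists, and a link between them was not tested. Proximal tubule markers sum to 7270 on tumor array 1 and 127254 on tumor array 2, while mast cell markers sum to 108722 and 183 on those arrays.

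The opposite order was seen in 2 members. Cyp2f2, the naphthalene-oxidising enzyme of airway club cells, read 1308 and 1507 in normal ureter, 9347 on tumor array 1 and 93.8 on tumor array 2. Its tumor arrays were 85.2-fold apart, and the mean difference was -0.49 (SE 2.25, adjusted p = 0.923). Cyp4f39, a long-chain fatty acid hydroxylase of the skin barrier, read 94.0 and 117 against 125 and 48.0. The basal urothelial markers also differed between the tumors, with sums of 10338, 14403, 71139 and 8512. Their part in the Cyp2f2 result was not tested.

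Cyp11a1 cleaves the side chain of cholesterol, the first step of steroid hormone synthesis. It read 1.99 and 5.73 in normal ureter, 325 on tumor array 1 and 4.15 on tumor array 2. Only tumor array 1 was above the limit (difference 2.07, SE 1.54, adjusted p = 0.489). Cyp11b1 and Cyp21a1, the adrenal 11beta- and 21-hydroxylases, had differences of -0.56 and -0.21 with a tumor array between the normal ones, and Cyp17a1 and Cyp11b2 were under the limit. Adrenal cortex markers, 6 measured of 8 listed, summed to 1611, 2128, 1214 and 765, and the defining markers Nr5a1 and Nr0b1 were under the limit. Mast cell markers, a list of 7 chosen after seeing the data, summed to 584, 524, 108722 and 183, and 5 of the 7 had tumor array 1 above and tumor array 2 below both normal arrays. Mast cells are known to express Cyp11a1, and their part in its signal was not tested.

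P450 genes of the mouse lie in tandem groups, and neighbours were set side by side in the order of RefSeq on GRCm38.p6. In the Cyp2j group, all 5 members were tested and ran Cyp2j13, Cyp2j11, Cyp2j6, Cyp2j9 and Cyp2j5. The genes at the ends differed most between the tumors, while Cyp2j9 in the group read 175 and 225 against 190 and 177. In the group with Cyp4a and Cyp4b1, 4 of 5 members were tested. Cyp4a12a was higher in both tumors, Cyp4a31 lower in both, and Cyp4a14 and Cyp4b1 had a tumor array on either side.

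The Cyp4f group also held both directions. In the order of the members, Cyp4f16, higher in both tumors, comes before Cyp4f15, which was lower in both. Genes that are not members can lie between them. In the Cyp2c group, 4 of 10 members were tested, and Cyp2c29, Cyp2c68 and Cyp2c50 were lower in both tumors, as were 27.6% of all genes. In the Cyp2d group, 5 of 7 were tested, of which Cyp2d10 and Cyp2d26 were lower in both tumors and Cyp2d9 and Cyp2d22 had a tumor array on either side. Genes of these groups are near copies, and signal of one can reach a probe set of another. Of the tested members, 5 were read by probe sets whose names mark probes shared between transcripts.

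**Figure D4:**
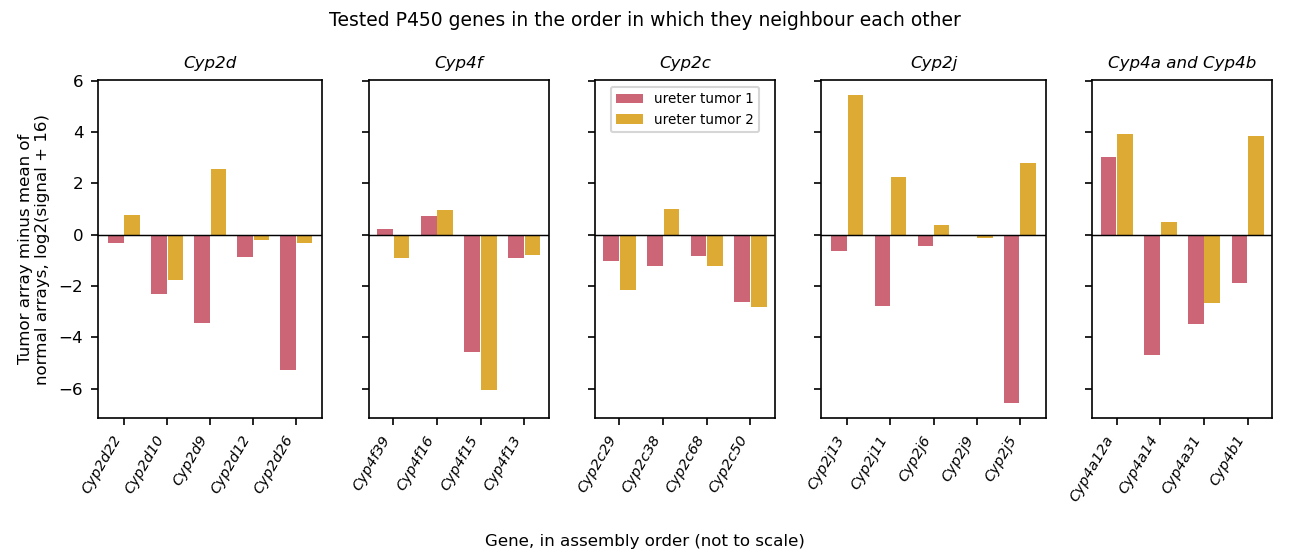
Difference of tumor array 1 and tumor array 2 from the mean of the normal arrays, log2(signal + 16) on the vertical axis, for the tested members of 5 groups of neighbouring P450 genes in assembly order. Adjacent bars of Cyp4f16 and Cyp4f15 point in opposite directions in both tumors, and in the Cyp2j group the bars of tumor array 2 reach 5.42 in Cyp2j13.

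By family, the patterns were counted against all genes tested, of which 29.7% were above in both tumors, 27.6% below in both and 11.5% below on tumor array 1 and above on tumor array 2. Family 2 had 35 members, 19 of them tested, of which 0 were above and 7 below in both tumors, and 6 had tumor array 1 below and tumor array 2 above. Of the 4 Cyp2b members, none reached the signal limit. Family 3 had 5 members and 1 was tested, Cyp3a11. Family 4 had 12 members and 10 were tested, with 3 above and 3 below in both tumors.

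Some members well above the signal limit had differences near 0. Cyp2s1, an extrahepatic enzyme of epithelia that acts on retinoids, read 400 and 554 in normal ureter and 530 and 419 in the tumors, a difference of 0.00 (adjusted p = 0.998). Both tumor arrays lay between the normal arrays. Cyp4v3, a fatty acid hydroxylase of the eye and other tissues, read 958 and 730 against 858 and 705, and Cyp2j6 read 368 and 528 against 318 and 580 (difference -0.03, adjusted p = 0.971). These p-values do not show that the levels were equal. Cyp2d12, with a mean close to the limit, read 119 and 52.5 against 36.2 and 67.4 (difference -0.54), and its groups overlapped.

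The 28 members under the limit had signals from 0.573 to 112, and in 13 of them no array reached the limit. They were 16 members of family 2, 4 of family 3, 2 of family 4 and 1 each of families 1, 7, 11, 17, 26 and 27. They included Cyp26a1, the main retinoic acid hydroxylase, at 5.56, 38.7, 81.7 and 4.09, and Cyp17a1 at 12.4, 55.1, 7.08 and 3.59. Just inside the limit were Cyp2c68 and Cyp11b1, with mean signals of 60.83 and 61.2, and just outside were Cyp3a13 and Cyp2b9, with 53.3 and 52.9. Of the 9 members with more than 1 probe set above the limit, 6 agreed in sign and 3, Cyp20a1, Cyp2d22 and Cyp4a31, did not.

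The genes that serve the P450 enzymes were read from a list of 48, of which 43 were measured and 37 tested. None passed the limma test, and 5 were higher and 9 lower at an unadjusted p under 0.05, against 10.7% and 10.8% of all genes. Both tumor arrays were below both normal arrays for 20 of the 37, against 27.6% of all genes, and above for 8, against 29.7%. Among the electron donors, Pgrmc1 and Pgrmc2, heme-binding partners of P450, differed by -1.19 and -0.86, with adjusted p-values of 0.178 and 0.162. Cyb5r3, cytochrome b5 reductase, had a difference of 0.57 (adjusted p = 0.179). Por, the main reductase, was not analysed here.

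Heme synthesis begins with Alas1, which read 3940 and 4363 in normal ureter and 1831 and 1607 in the tumors. The groups did not overlap, with a difference of -1.27 (adjusted p = 0.0724). Ppox and Uros, later enzymes of the same path, differed by -1.79 and -1.09, with adjusted p-values of 0.0794 and 0.118. Cpox, an enzyme of the same path, went the other way, with 195 and 67.4 against 541 and 613 (difference 2.16, adjusted p = 0.143), and Alad was also higher in both tumors, by 0.53 (adjusted p = 0.388). Hmox1, which breaks heme down, had a difference of 2.32 (adjusted p = 0.179), higher in both tumors.

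Among the regulators, Nr1h3, the oxysterol receptor LXR alpha, had a difference of -1.43 (adjusted p = 0.108), and Rxra, its partner, of -0.60 (adjusted p = 0.246). The xenobiotic receptors Nr1i2 and Nr1i3 were under the limit. Of the other oxidising enzymes, the flavin monooxygenase Fmo5 had a difference of -4.44 (adjusted p = 0.0794). The epoxide hydrolases Ephx1 and Ephx2, which open epoxides that P450 enzymes make, differed by -0.74 and -2.50, with adjusted p-values of 0.142 and 0.221. Another 3 P450 genes whose symbols have another form were also read. Cyp51, the lanosterol demethylase, read 965 and 1155 against 1125 and 2257 (difference 0.59, adjusted p = 0.452). Tbxas1, thromboxane synthase, had a difference of 1.41 (adjusted p = 0.190), and Ptgis, prostacyclin synthase, of 0.76 (adjusted p = 0.580).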

How the data were processed

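Total RNA of 2 normal ureter and 2 ureter tumor samples was hybridised to 1-colour arrays, from 6 ug of RNA each, per the labels. The authors deposited 1 linear intensity for each probe set, and MAS5 is the tool that the submitters' processing notes name. Its version and detection calls were not given in the sources used here. Of 45101 probe sets, 64 controls were left out, and 34945 had 1 gene symbol in the platform annotation.

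Intensity was transformed as log2(signal + 16). Each gene was read from its probe set with the highest mean signal, and genes with a mean of at least 60.8 were tested with limma 3.58.1 (R 4.3.3), with an intensity trend, two-sided, and Benjamini-Hochberg adjustment over all 13115 genes at 0.05. There were 2 residual and 2.09 prior degrees of freedom. The procedure was also run on simulated data, in which the spreads were shuffled over genes. That run therefore cannot show how the fit behaves under the intensity trend of these data.

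The members, gene lists and naming rule were chosen with earlier results of these data known. The rule named members past the test, a list of P450 genes with known roles, and the 5 members whose tumor arrays were farthest apart. It also named the 10 members with unadjusted p under 0.05, at least a 2-fold difference and both tumor arrays on one side of normal. The mast cell, neutrophil, thick limb and sex-linked lists were added after seeing the data, as was a probe set choice and filter by mean log2 signal. Other named members were chosen after their values were seen. Alternatives covered pseudocount, scaling, filter, probe set choice, trend, block and arrays left out.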

Additional observations from a re-analysis of the deposited data

Results flagged for a closer look

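Some probe sets matched more than 1 P450 gene and therefore named no gene and entered no comparison. One of them read 117 and 93.8 in normal ureter and 202 and 253 in the tumors, so that both tumor arrays were above both normal arrays. Its difference was 1.00 on the log2(signal + 16) scale. It is listed because it gave a signal above the normal arrays in data that the comparison of single genes left out.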

How the results depend on the processing

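The 2 P450 calls, Cyp1b1 and Cyp7b1, depended on the settings, and the cause was not tested. The count of P450 genes called was 0 with median centring, no filter, averaged probe sets, no intensity trend or the replicate block, 1 with the mean of log2 signals, 10 where 2-fold and an unadjusted p under 0.05 made a call, and 0 to 21 with 1 array left out. In the same order, all genes called were 27, 69, 104, 2 and 0, against 190 in the main setting, and were 1903 by the 2-fold rule, 488 over every probe set and 0 to 5452 with 1 array left out. Adjusted p-values of Cyp1b1 and Cyp7b1 were 0.0506 and 0.0507 with centring, 0.0509 and 0.0546 with no filter, 0.0838 and 0.064 with mean probe sets, 0.0678 and 0.0665 with no trend, and 0.117 and 0.107 with the replicate block. Replicate numbers are not said to pair samples, and the correlation of their deviations was 0.0434. Without tumor 1 and without tumor 2, in that order, differences of opposite sign were seen in members such as Cyp2d9 (2.54 and -3.45) and Cyp2f2 (-3.69 and 2.72). Others were Cyp2j11 (2.25 and -2.77), Cyp2j5 (2.78 and -6.55) and Cyp4b1 (3.85 and -1.89). A fit without 1 tumor array takes its spread from the normal arrays alone and assumes that the lone tumor array varies like them. Members above in both tumors numbered 6 of 43, and with 1 array left out 8 to 17 of 43. Those below numbered 15 of 43, 23 of 71 with no filter and 6 of 25 with a filter at the 60th percentile. With 1 array left out they numbered 18 to 28 of 43. Over all genes in the main setting, 29.7% were above and 27.6% below, and these shares are not given here for the other settings. Partner genes called numbered 0, and 11 by the 2-fold rule, 1 with every probe set, 1 without probe sets named as shared and 0 to 27 with 1 array left out. Differences that turned sign were Cyp2d9 with a pseudocount of 64 (0.14), Cyp2s1 with quantile normalization (-0.054) and Cyp2j6 with median centring (0.16), which moved the median of all genes by 0.20. With 1 array left out, Cyp24a1 ranged from -0.72 to 5.21, Cyp2d9 from -3.45 to 2.54, Cyp2f2 from -3.69 to 2.72, Cyp2j13 from -0.63 to 5.42, Cyp2j5 from -6.55 to 2.78, Cyp2j6 from -0.45 to 0.38, Cyp2s1 from -0.22 to 0.23 and Cyp4b1 from -1.89 to 3.85. Of 398 values of 24 named members under the alternative settings that gave values for single genes, 341 kept direction and side of the threshold. Signals near the limit of 60.8 are close to background, and 2 arrays a group limit every comparison. Control signal at the 3′ end of Gapdh over that at its 5′ end was 0.92 on both normal arrays. It was 1.51 on tumor array 1 and 1.44 on tumor array 2, so it differed along with the groups, and its part in the results was not tested.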

Other observations

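Other probe sets assigned to more than 1 P450 gene also set the tumors apart. One read 815 and 1339 in normal ureter, 1.41 on tumor array 1 and 6457 on tumor array 2. Another read 236 and 416 against 123 and 6522. For both, tumor array 1 was below and tumor array 2 above both normal arrays, as in Cyp2j5. In contrast, a further such probe set read 69.8 and 244 against 2.46 and 12.3, below in both tumors. Over the tested members, the correlation across genes (Pearson's r) was 0.947 for the pair of normal arrays, 0.305 for the pair of tumor arrays and 0.355 to 0.509 for pairs of unlike arrays. Over all 13115 genes the same values were 0.975, 0.778 and 0.760 to 0.823. The genes share their arrays and are not independent replicates.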
